A study of Mus musculus with 12 samples.

Results

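The genes described here are those of mouse interscapular brown fat whose transcript level at a mild cold of 22 °C lay outside the levels at both a warmer and a colder housing temperature, 30 °C and 6 °C. RNA sequencing libraries came from 12 wild-type C57BL/6J mice, 4 at each temperature, which were moved to their temperature at 10 weeks of age and were 14 weeks old after 4 weeks there. No transgene, drug or diet is named for any group. Of 14870 genes with enough counts to test, 7566 (50.9%) had their 22 °C mean outside both other means: 3836 (25.8%) above both, called peaks here when the test below was passed, and 3730 (25.1%) below both, called troughs. The other 7304 (49.1%) had it between them. Many genes sat close to that line, since 2481 were outside by less than 0.1 log2 units of the nearer mean and 2418 lay between but within 0.1 of it.

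Interscapular brown fat lies between the shoulder blades and makes heat, mainly in mitochondria that carry the uncoupling protein UCP1, which lets protons return to the matrix without making ATP. Cold acts on it through sympathetic nerves and beta-adrenergic receptors. The respiratory chain that feeds this process is built from many subunits encoded in the nucleus and a few encoded in mitochondrial DNA. The depot also holds blood vessels, nerves, fibroblasts and macrophages, the phagocytes that clear dead cells and lipid, and brown fat grows in prolonged cold partly by division of its precursor and vessel cells.

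Levels are given in CPM, the reads of a gene per 1000000 counted reads of the library after scaling. The contrast of a gene is its mean at 22 °C minus the average of its means at 30 and 6 °C, in log2 units, so that a size of 1 is a 2-fold difference. Contrasts and pairwise differences were tested with edgeR's quasi-likelihood test over all 12 libraries, and a gene is said to be higher or lower when its Benjamini-Hochberg adjusted p over all tested genes was under 0.05. All adjusted p-values below are of this kind. They weigh a difference against the spread between these mice. A peak or trough with both steps called also differed, in the same direction, in the separate tests of 22 against 30 °C and of 22 against 6 °C. Those tests use the same 22 °C libraries as the contrast, so they describe its parts and are no separate evidence.

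Total counts ran from 18290162 to 32513051 per library, apart from 86438386 in 22 °C mouse 3, whose library code (8846) also lies outside the range of the others (7509 to 7520). In 2 of the 30 °C columns the number in the column name matches no 30 °C title. Only their letter ties them to 30 °C, and they are mice A and B below. The scaling factors were 1.105 to 1.23 at 30 °C and 0.870 to 0.982 in the other libraries. Markers of the tissue were present in every library, with Ucp1 between 692 and 11950 CPM. The summed level of 22 skeletal muscle markers varied from 115 to 6058 CPM between mice, with ranges that overlapped between temperatures. The median difference of 6 from 30 °C over these markers was -1.34 log2 units, and none of them was a peak or a trough.

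The contrast was called for 4353 genes (29.3% of those tested), of which 2227 (15%) were higher and 2126 (14.3%) lower at 22 °C. Among them were 1796 peaks (12.1%) and 1860 troughs (12.5%). Both steps were called for 609 peaks (4.1%) and 763 troughs (5.13%). Troughs were deeper than peaks were high. The median size of the contrast was 0.80 log2 units in troughs and 0.41 in peaks, and it reached 1 or more in 762 troughs but in 162 peaks. With both steps called, the smaller step had a median of 0.99 log2 units in troughs and 0.39 in peaks. The balance of higher and lower calls moved with the scaling: with total counts alone 29.8% of the called genes were higher, and after removal of a trend in the length and GC content of exons 63.8% were, as against the 2227 of 4353 above, while the median contrast of all genes shifted by -0.10 and 0.08 from its main value of 0.02.

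The ends of the temperature range were not called apart for 790 peaks (44%) and 743 troughs (39.9%), so that these genes had similar values at 30 and 6 °C with a departure between them, or differences too small to call. Among the other peaks, 564 (31.4%) were higher at 6 than at 30 °C and 442 (24.6%) lower. Among the other troughs the balance was 207 (11.1%) and 910 (48.9%). Over all tested genes the difference of 6 from 30 °C was called higher for 25.3% and lower for 31.5%.

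**Figure D1:**
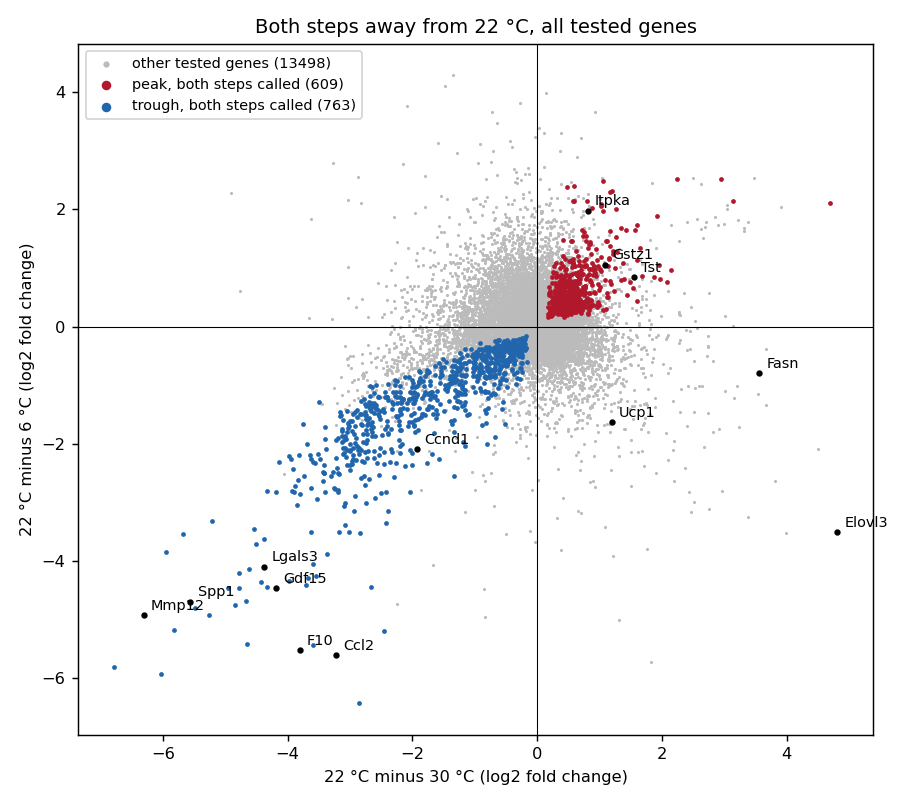
Each point is 1 gene: the x axis is its log2 fold change of 22 against 30 °C and the y axis that of 22 against 6 °C, with peaks in the upper right and troughs in the lower left quadrant. The 763 troughs with both steps called reach farther from the origin than the 609 peaks, and the reference genes Ucp1 and Elovl3 lie in the quadrant of genes that rose at each step toward cold.

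Most markers of macrophages were troughs. Of 18 markers of macrophages, all of them tested, 16 were troughs and 10 had both steps called, with a median contrast of -2.33 against 0.02 over all genes. The summed level of the 18 markers was 169 to 234 CPM in the mice at 22 °C, 347 to 723 at 6 °C and 625 to 2322 at 30 °C, where mice A and B had 2050 and 2322 and mice 1 and 2 had 625 and 718. In bulk tissue, fewer cells of a type and less RNA per cell cannot be told apart. Without mice A and B the list still held 15 troughs with a median contrast of -1.85, and without 22 °C mouse 3 it held 15 with a median of -2.34. The 2 members that were no trough were C1qa, lower at 22 than at 30 °C with a 6 °C mean just below, and Cd14, for which 22 and 30 °C were alike and 6 °C lower. Both are named after their values were seen.

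Mmp12 encodes macrophage elastase, a secreted protease (chr9:7344381-7369499, GRCm38). Its level was 7.996, 23.2, 22.4 and 25.8 CPM in the mice at 30 °C, 0.346, 0.119, 0.259 and 0.22 at 22 °C and 6.70, 9.09, 8.10 and 6.35 at 6 °C. Every mouse at 22 °C was below every other mouse, and the 22 °C values rest on 36 reads in all, 7, 2, 22 and 5 in mice 1 to 4. The contrast was -5.62 ± 0.40 (SE, adjusted p = 2.34e-05, edgeR), with fitted folds of 79.5 for 30 over 22 °C and 30.4 for 6 over 22 °C.

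Ctss, cathepsin S of the antigen-processing lysosome, gave 50.3, 74.7, 286 and 303 CPM at 30 °C, 11.5, 7.21, 8.94 and 7.83 at 22 °C and 76.9, 91.4, 41.5 and 39.0 at 6 °C. Lgals3, galectin 3, gave 27.6, 49.0, 237 and 180.1 CPM at 30 °C, 8.71, 3.94, 6.74 and 4.09 at 22 °C and 129, 135, 54.5 and 88.1 at 6 °C. For both genes the 22 °C range lay below all 8 other mice, and mice A and B were the highest of all. Their contrasts were -3.57 ± 0.60 (adjusted p = 0.00241, edgeR) and -4.24 ± 0.70 (adjusted p = 0.00231, edgeR), and without mice A and B they were -2.82 and -3.40.

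Further genes of phagocytes had the same form. Spp1, which encodes the secreted protein osteopontin, had a contrast of -5.13 ± 1.15, Gpnmb, a glycoprotein of lysosomes, -4.0 ± 0.76, and Cd5l, a macrophage survival factor, -4.89 ± 0.99. For Clec4d, a lectin receptor that senses microbial lipids, it was -4.68 ± 0.82, and for Atp6v0d2, a subunit of the proton pump found in osteoclasts and macrophages, -4.61 ± 0.84. In each of these 5 genes every mouse at 22 °C was below every other mouse, but the means at 22 °C were only 0.0966 to 5.39 CPM. Several of these contrasts moved by more than 1.5-fold without some libraries. Without mice A and B together they were -3.66 for Spp1, -3.10 for Gpnmb, -4.27 for Cd5l, -3.89 for Clec4d and -3.62 for Atp6v0d2, without 22 °C mouse 1 that of Cd5l was -5.72, and without mouse 3 those of Cd5l and Clec4d were -4.29 and -5.46. By limma voom in place of edgeR, Spp1 (adjusted p = 0.123), Cd5l (0.057) and Atp6v0d2 (0.0642) did not pass.

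Adgre1 and Mrc1, surface proteins of tissue macrophages, had shallower troughs. Adgre1, the F4/80 antigen, chosen after its values were seen, was 6.72 CPM at 22 °C, 55.2 at 30 °C and 14.4 at 6 °C (means of 4 mice), with steps of -3.04 (adjusted p = 0.000411, edgeR) from 30 °C and -1.11 (adjusted p = 0.0729) from 6 °C. Mrc1, the mannose receptor, had steps of -1.63 (adjusted p = 0.000383, edgeR) and -0.65 (adjusted p = 0.0606). In both genes the 22 °C range lay below the ranges at 30 and 6 °C although the step to 6 °C did not pass the test.

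The coagulation factor genes F7 and F10, neighbours on chromosome 8, were both troughs. F10, factor X, was 0.779, 0.764, 2.82 and 2.33 CPM at 30 °C, 0.099, 0.0596, 0.118 and 0.176 at 22 °C and 8.48, 5.95, 2.62 and 5.19 at 6 °C. Its 6 °C mean was above its 30 °C mean by 1.71 log2 units (adjusted p = 0.00538, edgeR), and its contrast was -4.66 ± 0.58 (adjusted p = 0.000328). F7, factor VII, was 0.508, 1.29, 10.2 and 8.26 CPM at 30 °C, 0.198, 0.119, 0.106 and 0.132 at 22 °C and 4.75, 5.98, 2.58 and 2.78 at 6 °C, with a contrast of -5.09 ± 0.98 (adjusted p = 0.00366, edgeR) that was -3.84 without mice A and B. Its extremes were not called apart (6 minus 30 °C, -0.34, adjusted p = 0.703, edgeR), and at 30 °C mice 1 and 2 lay below all mice at 6 °C. At 22 °C no mouse had more than 10 reads of either gene.

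Chemokines, the secreted proteins that draw leukocytes into tissue, were low at 22 °C in most cases. Of 24 that were tested, 15 were troughs (62.5%, as against 12.5% of all tested genes), 9 of them with both steps called. Another 2 were peaks (8.33%, as against 12.1%), Ccl25 and Cxcl14, the latter a product of adipocytes. The median contrast of the 24 was -1.28. Ccl2, which attracts monocytes and was chosen after its values were seen, was 3.19, 2.73, 6.203 and 4.76 CPM at 30 °C, 0.544, 0.358, 0.424 and 0.484 at 22 °C and 35.6, 25.7, 9.45 and 17.4 at 6 °C. All mice at 6 °C lay above all mice at 30 °C, and those at 22 °C lay below both, for a contrast of -4.42 ± 0.44 (adjusted p = 0.000158, edgeR). Without 22 °C mouse 3 and mice A and B together, 10 of the chemokines were troughs and 4 had both steps called. Of 15 Fc receptors and C-type lectin receptors, which bind antibodies and microbial sugars, 14 were troughs (93.3%) and 1, the antibody-recycling receptor Fcgrt, was a peak. Both steps were called for 7 of the 14, and for 4 without 22 °C mouse 2 or without 6 °C mouse 2.

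Of 12 markers of T and natural killer cells, 3 were troughs (25%, as against 12.5% of all tested genes) and none had both steps called, with a summed level of 14.3 to 27.9 CPM at 30 °C, 3.70 to 5.81 at 22 °C and 1.99 to 5.28 at 6 °C. The class II histocompatibility genes held 2 troughs of 7 (28.6%), neither with both steps called, and their summed level was 382.5 to 773 CPM at 30 °C, 152 to 199.5 at 22 °C and 73.4 to 137 at 6 °C. Of 5 B cell markers 1 was a trough (20%), with both steps called. Markers of neutrophils and mast cells (8) and of erythroid cells (6) held no peak or trough.

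**Figure D2:**
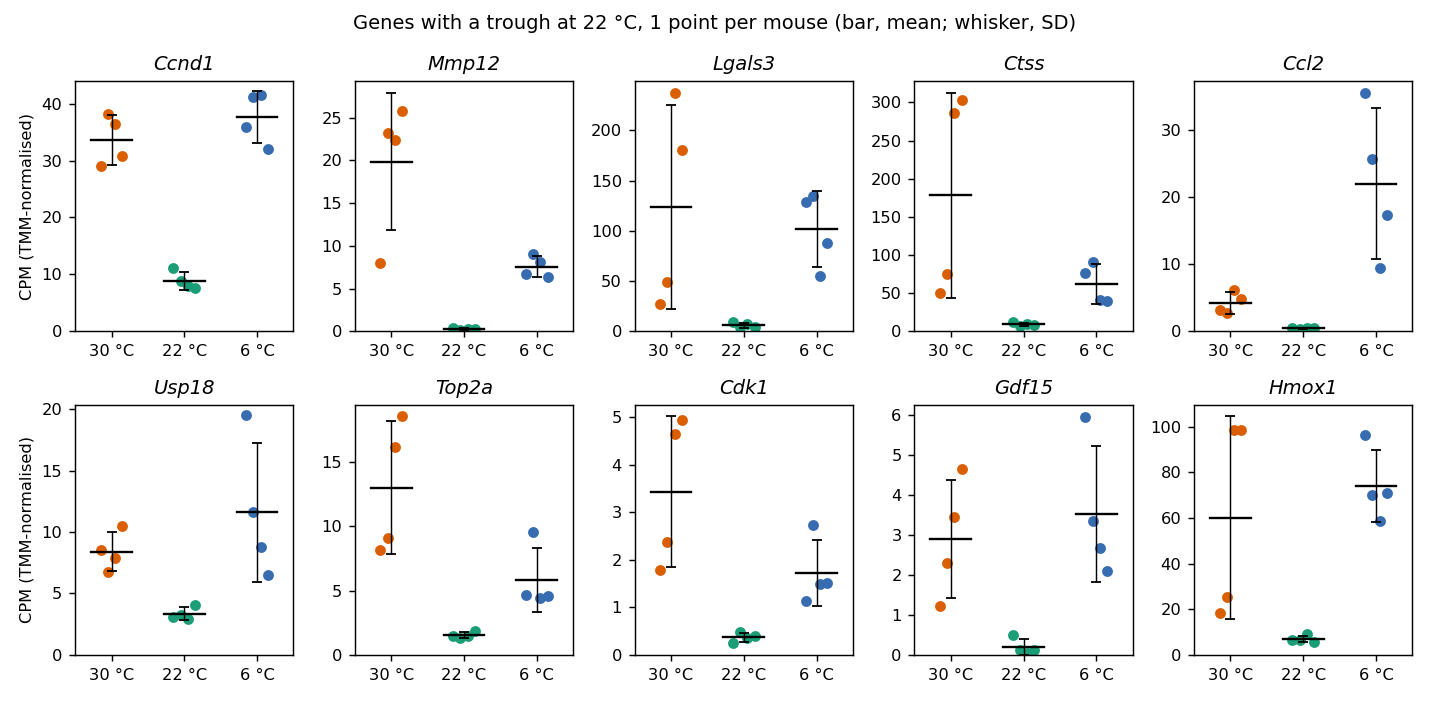
CPM of 10 genes with a trough at 22 °C, 1 point per mouse, with a bar for the mean and a whisker for the SD of 4 mice at each temperature on the x axis. All points at 22 °C lie below all points at 30 and 6 °C in each panel, while the spread at 30 °C is wide for Lgals3, Ctss and Hmox1, where mice A and B stand above mice 1 and 2.

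Interferon-stimulated genes formed the second group. These genes are switched on by type I interferons through factors that bind the interferon-stimulated response element, a pair of GAAA blocks with 2 bases between them. Of 22 such genes, all tested, 16 were troughs and 13 had both steps called, and the median contrast was -1.26. The mean log2 CPM over the list was 2.84 to 2.98 in the mice at 22 °C, 3.62 to 4.57 at 30 °C and 3.32 to 4.59 at 6 °C, where mice 1 and 2 had 4.59 and 4.28 and mice 3 and 4 had 3.32 and 3.40. The summed level was 405 to 440 CPM at 22 °C and 532 to 772 at 30 °C. At 6 °C it was 728 and 637 in mice 1 and 2 but 364 and 396 in mice 3 and 4. By that measure 6 °C mice 3 and 4 lay below every mouse at 22 °C.

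Usp18, which takes the ISG15 protein off its targets, was 8.504, 6.75, 7.85 and 10.5 CPM at 30 °C, 3.12, 3.28, 2.90 and 4.09 at 22 °C and 19.5, 11.6, 8.78 and 6.50 at 6 °C. The ranges at 22 °C and at the extremes did not overlap, and the contrast was -1.57 ± 0.27 (adjusted p = 0.00153, edgeR). Oas3, a sensor of double-stranded RNA, was 1.76, 0.924, 3.12 and 5.26 CPM at 30 °C, 0.396, 0.298, 0.236 and 0.176 at 22 °C and 6.78, 5.35, 1.84 and 1.84 at 6 °C. It had the largest contrast in the list, -3.63 ± 0.63 (adjusted p = 0.00199, edgeR), or -3.0 without 22 °C mouse 3 and mice A and B together. Ifit1, which binds foreign RNA ends, and Oas1a, a relative of Oas3, had contrasts of -1.73 ± 0.31 and -2.07 ± 0.40.

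Members that were not called include Mx2, Rsad2, Gbp2, Gbp3 and Irf1, named after their values were seen. The count rests on several libraries at once: leaving out any single mouse left 14 to 17 troughs, but leaving out 22 °C mouse 3 and mice A and B together left 8, with 1 in both steps, at a median contrast of -1.12. The macrophage markers listed above moved with this group, and their part in it was not tested.

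Promoter sequence was looked up for these genes in RefSeq (GRCm38.p6), as 300 bases from 250 before to 50 after the transcription start. The response element, searched on both strands as GAAA, any 2 bases and GAAA again, was found in 9 of the 13 interferon-stimulated troughs that had an entry (69.2%), in 5.89% of all troughs and in 3.92% of the promoters of 11165 tested genes. Stretches of 60 bases around the first match are shown for Isg15, Ifit1 and Oas1a, from chr4:156200862-156200921 (minus strand), chr19:34640760-34640819 (plus strand) and chr5:120907511-120907570 (minus strand). They show how the blocks repeat, with every match in the stretch in capitals. Isg15, which encodes the small protein that USP18 removes, had a contrast of -1.51 ± 0.34 (adjusted p = 0.0062, edgeR) and was chosen after its values were seen. Without 22 °C mouse 3 and mice A and B together its adjusted p was 0.0583.
Isg15: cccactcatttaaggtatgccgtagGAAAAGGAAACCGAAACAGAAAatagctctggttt
Ifit1: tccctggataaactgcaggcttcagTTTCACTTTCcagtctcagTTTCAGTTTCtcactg
Oas1a: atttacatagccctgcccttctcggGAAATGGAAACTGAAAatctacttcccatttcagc
In Isg15 and Oas1a the matches overlap into 1 run, whereas in Ifit1 they are separate and read on the other strand. A match is a string of letters and no measured binding site. Matches were counted in the list's troughs only, so the share cannot be set apart from that of interferon-stimulated genes in general.

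Most genes of cell division were troughs. Of 25 proliferation genes, all tested, 22 were troughs, 19 had both steps called and 19 had a 22 °C range below both other ranges, where 5.09% of all tested genes did. The median contrast was -1.33. The mean log2 CPM over the list was 0.15 to 0.32 at 22 °C, 1.73 to 2.51 at 30 °C and 1.08 to 1.70 at 6 °C, so that 6 °C lay between. At 30 °C mice A and B had 2.51 and 2.47 and mice 1 and 2 had 1.74 and 1.73, and the macrophage markers were also higher in A and B (mean log2 CPM 6.0 and 6.10 against 4.23 and 4.51). At 6 °C mouse 2 was the highest in both lists, with 1.70 and 4.60. The part of the macrophage markers in the proliferation result was not tested. Without mice A and B, 20 troughs were called, 19 of them with both steps, at a median contrast of -1.17. Leaving out 22 °C mouse 3 and mice A and B together left 20 troughs, 19 of them with both steps called, and a median of -1.21.

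Ccnd1, cyclin D1, which carries cells from rest into the cycle, had the smallest contrast p of any trough (chr7:144929931-144939925, GRCm38). Its values were 29.0, 38.2, 36.4 and 30.8 CPM at 30 °C, 11.1, 8.82, 7.93 and 7.61 at 22 °C and 35.9, 41.2, 41.5 and 31.9 at 6 °C. The ranges at the extremes overlapped, and every mouse at 22 °C lay below both. The contrast was -2.01 ± 0.13 (adjusted p = 4.52e-06, edgeR), with folds of 3.80 for 30 over 22 °C and 4.26 for 6 over 22 °C. Of its exon bases 23.4% overlap a gene on the opposite strand, and since the strand of the libraries is not given in the sources used here, those reads cannot be told apart.

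Top2a, topoisomerase II alpha, which untangles replicated DNA, was 8.17, 9.12, 16.2 and 18.6 CPM at 30 °C, 1.48, 1.31, 1.44 and 1.85 at 22 °C and 4.67, 9.59, 4.46 and 4.56 at 6 °C. The values at 22 °C were the lowest and the closest together, and the contrast was -2.52 ± 0.31 (adjusted p = 0.000355, edgeR). Cdk1, the kinase that starts mitosis, had -2.74 ± 0.38, its partner cyclin A2 (Ccna2) -2.45 ± 0.27, and Tpx2, a spindle assembly factor, -2.50 ± 0.34. In all 4 of these genes the 6 °C mean was below the 30 °C mean, by a called difference of -1.16 in Top2a, -0.99 in Cdk1, -0.94 in Ccna2 and -1.0 in Tpx2.

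The kinesins that move chromosomes in mitosis held 10 troughs of 12 (83.3%, as against 12.5% of all tested genes), with a median contrast of -1.81. Of the 6 subunits of the replicative helicase, Mcm2 to Mcm6 were troughs, with contrasts from -1.21 (Mcm5) to -0.36 (Mcm4), and Mcm7 was a peak with 0.33 ± 0.10 (adjusted p = 0.0277, edgeR), a call that was lost without 22 °C mouse 2 (adjusted p = 0.0756, edgeR) or mouse 3 (0.104). The members Ccnb1, Ccne2 and Tyms of the proliferation list were not called. Mcm7 and these 3 are named because they stood apart, after their values were seen.

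The promoters of the proliferation troughs were searched for CCAAT, the box bound by NF-Y, which is known from many cell cycle promoters. It was found on either strand in 16 of the 18 that had an entry (88.9%), as against 41.6% of the promoters of all troughs and 42.1% of those of all tested genes with an entry. The whole 300-base window of Top2a (chr11:99024140-99024439, minus strand) is shown because it holds 6 matches, with each match in capitals. A single stretch of 55 bases follows for Plk1, a mitotic kinase (chr7:122159396-122159450, plus strand).
Top2a: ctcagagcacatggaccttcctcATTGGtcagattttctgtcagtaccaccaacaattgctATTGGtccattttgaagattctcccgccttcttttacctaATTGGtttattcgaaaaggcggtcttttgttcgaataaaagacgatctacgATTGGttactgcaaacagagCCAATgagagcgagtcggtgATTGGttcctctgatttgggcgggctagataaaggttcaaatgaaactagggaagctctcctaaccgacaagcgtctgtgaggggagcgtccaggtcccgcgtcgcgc
Plk1: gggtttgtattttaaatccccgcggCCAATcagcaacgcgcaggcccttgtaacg
In Top2a 5 of the 6 capital blocks read ATTGG, the box on the other strand, and 1 reads CCAAT.

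Genes of stress responses with a trough differed in depth. Gdf15, a secreted factor that rises in mitochondrial and other cell stress, was 1.22, 2.29, 3.45 and 4.66 CPM at 30 °C, 0.495, 0.119, 0.0472 and 0.132 at 22 °C and 5.97, 3.34, 2.69 and 2.10 at 6 °C. All mice at 22 °C were below the others, with 10, 2, 4 and 3 reads in mice 1 to 4. The contrast was -4.32 ± 0.64 (adjusted p = 0.00092, edgeR), -5.29 without 22 °C mouse 1 and -3.67 without mouse 3.

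Hmox1, heme oxygenase, which breaks down heme, was 18.2, 25.2, 98.6 and 98.6 CPM at 30 °C, 6.53, 6.50, 9.13 and 5.72 at 22 °C and 96.3, 70.0, 58.9 and 70.8 at 6 °C. The 22 °C mice were the lowest, and at 30 °C mice A and B were above mice 1 and 2, for a contrast of -3.24 ± 0.53 (adjusted p = 0.0021, edgeR) and -2.51 without mice A and B. Atf3, a transcription factor induced within minutes by many stimuli, was 27.9, 23.8, 17.9 and 33.6 CPM at 30 °C, 4.45, 3.34, 7.45 and 5.76 at 22 °C and 36.6, 15.8, 41.8 and 14.5 at 6 °C, again with no overlap, and had a contrast of -2.30 ± 0.37 (adjusted p = 0.00161, edgeR). Of the 25 immediate early genes, Atf3, Maff and Klf6 were troughs (12%, near the 12.5% of all tested genes). The other 22 were not called, Fos and Jun among them. Only Atf3 had both steps called. The step of Maff from 30 °C was -0.01 (adjusted p = 0.98, edgeR) and that of Klf6 from 6 °C was -0.27 (adjusted p = 0.11).

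Targets of the stress factor ATF4, with genes of serine and folate metabolism, held 8 troughs (38.1%) and 1 peak (4.76%) of 21. The shares were 12.5% and 12.1% among all tested genes. The median contrast of the list was -0.43. Mthfd2, a mitochondrial folate enzyme, was a trough with -1.09 ± 0.18 (adjusted p = 0.00119, edgeR). Asns, asparagine synthetase, a target of the same factor, was the peak, with 54.6, 53.6, 49.9 and 41.7 CPM at 30 °C, 80.5, 77.9, 79.1 and 67.5 at 22 °C and 58.1, 54.9, 65.4 and 58.8 at 6 °C. No mouse at 22 °C overlapped another group, and its contrast was 0.49 ± 0.08 (adjusted p = 0.0011, edgeR). Both steps were called for 5 of the 8 troughs, and for 3 without 6 °C mouse 1.

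Other troughs with small p-values were in none of those lists. Slc43a2, a transporter of large neutral amino acids, was 41.4, 58.0, 69.3 and 70.1 CPM at 30 °C, 38.1, 31.1, 35.3 and 32.8 at 22 °C and 156, 126, 132 and 137 at 6 °C. Its 6 °C values were the highest and its 22 °C values the lowest in every mouse, with a contrast of -1.40 ± 0.13 (adjusted p = 8.28e-05, edgeR). Rgs11, which speeds the shut-off of G proteins, was highest at 30 °C at 7.49 ± 0.823 CPM (SD, n = 4), 0.646 ± 0.174 at 22 °C and 1.62 ± 0.274 at 6 °C, with a contrast of -2.39 ± 0.19 (adjusted p = 2.84e-05, edgeR). Among genes of cholesterol synthesis, Fdft1, squalene synthase, the first enzyme committed to sterols, was a peak at 52.8, 33.2, 44.0 and 36.3 CPM at 30 °C, 71.7, 89.9, 64.8 and 89.9 at 22 °C and 31.3, 52.4, 35.7 and 50.05 at 6 °C. The 22 °C mice did not overlap the others, and the contrast was 0.91 ± 0.16 (adjusted p = 0.00211, edgeR). Of the 24 cholesterol genes 4 were troughs and 4 peaks (16.7% each, as against 12.5% and 12.1% of all tested genes). Exons of Fdft1 share 18.3% of their bases with an opposite-strand gene.

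**Figure D3:**
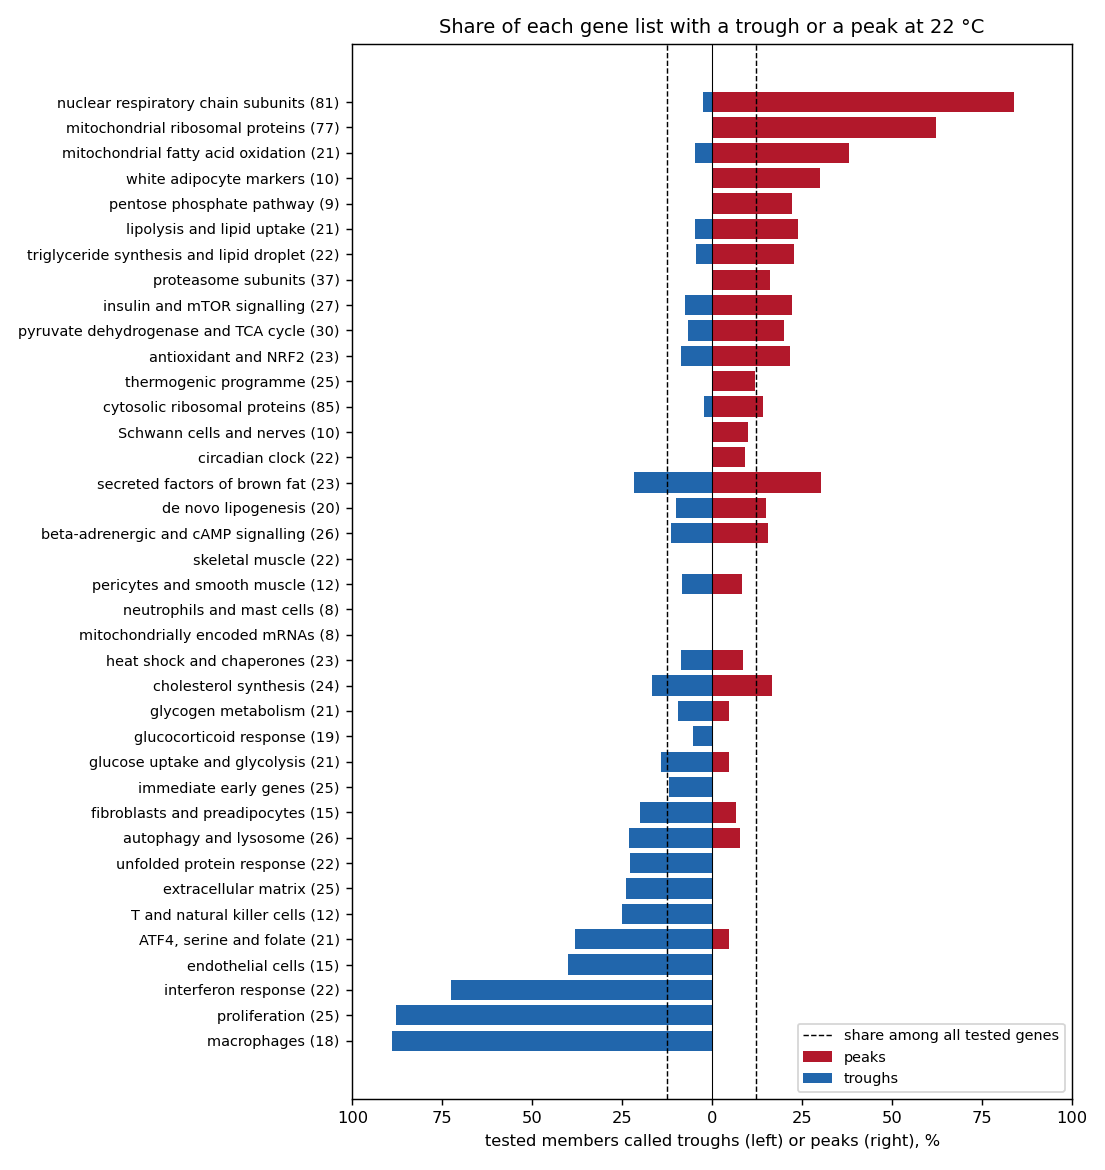
Bars give the percent of the tested members of each gene list that were peaks (to the right) and troughs (to the left) at 22 °C, with the 12.1% and 12.5% of all tested genes for comparison. Macrophage, proliferation and interferon lists stand out on the trough side and the respiratory chain and mitochondrial ribosome on the peak side.

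Most nuclear genes of the respiratory chain were peaks. Of 81 subunits, 68 were peaks, 38 of them with both steps called, 2 were troughs, and the median contrast was 0.42. The rise was small, since no subunit reached a contrast of 1. The mean log2 CPM over the list was 8.0 to 8.39 in the mice at 22 °C, 7.49 to 7.76 at 30 °C and 7.92 to 7.93 at 6 °C. At 22 °C mouse 3 was the lowest with 8.0 and mouse 2 the highest with 8.39. By summed level, where highly expressed subunits weigh more, the 22 and 6 °C mice overlapped. Mouse 3 at 22 °C had 44440 CPM, below the 46030 to 50610 of the mice at 6 °C, and the other 22 °C mice had 52010 to 57770. The 22 °C range lay above both others for 31 subunits, where it did for 3.5% of all tested genes.

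All 5 complexes held peaks. Peaks were 33 of 36 subunits of complex I, which takes electrons from NADH, 3 of 4 of complex II, 7 of 9 of complex III, 12 of 15 of complex IV, the cytochrome c oxidase, and 12 of 15 of ATP synthase. Both steps were called for 18 of the peaks in complex I, none in complex II, 3 in complex III, 8 in complex IV and 8 in ATP synthase. The median step from 30 °C was 0.61 log2 units and that from 6 °C 0.29. Leaving out single libraries gave 55 peaks (without 22 °C mouse 2) to 70 (without mouse 3), and with length and GC trends removed there were 63, of which 26 had both steps called.

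Cox6a1, a subunit of cytochrome c oxidase, was 657, 672, 683 and 572 CPM at 30 °C, 1387, 1613, 1208 and 1479 at 22 °C and 1028, 978, 1009 and 1013 at 6 °C. The groups did not overlap, with 22 °C the highest and 30 °C the lowest. Its contrast was the largest of the chain at 0.82 ± 0.08 (adjusted p = 8.28e-05, edgeR), with steps of 1.14 from 30 °C and 0.50 from 6 °C. Ndufa1, an X-linked subunit of complex I, was 179, 158, 169 and 155 CPM at 30 °C, 318, 375, 256 and 368 at 22 °C and 216, 224, 219 and 200.2 at 6 °C, with a contrast of 0.81 ± 0.09 (adjusted p = 0.000158, edgeR). Cox6c of complex IV had a contrast of 0.73 ± 0.07 and Atp5k, a membrane subunit of ATP synthase, 0.61 ± 0.07. For Cox6c and Atp5k the 6 and 30 °C means were not called apart.

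The exceptions among the subunits were Cox4i2 and Ndufa4l2, alternative forms known to be raised by low oxygen, which were troughs with -0.46 ± 0.14 (adjusted p = 0.025, edgeR) and -0.41 ± 0.11 (adjusted p = 0.0153). The call of Cox4i2 was lost without any 1 of the 22 °C mice 2, 3 and 4 (adjusted p from 0.0595 to 0.0826, edgeR), and that of Ndufa4l2 without mouse 3 and mice A and B together (0.106). Both genes are named after their values were seen. The messenger RNAs encoded in mitochondrial DNA, of which 8 were tested, held no peak or trough, with a median contrast of -0.07 and summed levels of 167600 to 221200 CPM at 30 °C, 181400 to 213300 at 22 °C and 168700 to 223200 at 6 °C. Many respiratory chain and ribosomal protein genes have processed copies elsewhere in the genome, and how reads with several matches were counted is not given in the sources used here.

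The mitochondrial ribosome, which translates the mitochondrial messages, moved the same way. Of 77 protein genes, 48 were peaks, 19 with both steps called, and none was a trough, with a median contrast of 0.29. The mean log2 CPM was 5.48 to 5.81 at 22 °C, 4.98 to 5.23 at 30 °C and 5.51 to 5.57 at 6 °C, so that the 22 and 6 °C mice overlapped at this level. Mrpl30 of the large subunit was 88.5, 84.0, 83.6 and 72.6 CPM at 30 °C, 121, 160.2, 142 and 139 at 22 °C and 90.2, 95.3, 97.3 and 96.1 at 6 °C. No mouse at 22 °C overlapped the others, and the contrast was 0.67 ± 0.07 (adjusted p = 0.000149, edgeR). Mrps21 of the small subunit had 0.58 ± 0.06. Without 22 °C mouse 2 there were 34 peaks and 11 with both steps called, and with the length and GC trend removed 46 and 11. Of 24 mitochondrial import proteins 11 were peaks (45.8%), and of 8 complex I assembly factors 4 (50%). Among 85 cytosolic ribosomal proteins 12 were peaks (14.1%, near the 12.1% of all genes) and 2 troughs.

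Nuclear respiratory factor 1 is known to drive many of these genes, and its consensus (GCGC, any base, TGCGC) was searched on both strands of the 300-base promoters. It was found in 14 of 57 respiratory chain peaks with an entry (24.6%) and 12 of 42 mitochondrial ribosomal peaks (28.6%), in 14% of all peaks, 5.75% of all troughs and 10.7% of all tested genes with an entry. Stretches of 60 bases are shown for Cox6a1 (chr5:115349086-115349145, minus strand), Atp5k (chr5:108434415-108434474, minus strand) and Mrpl30 (chr1:37890369-37890428, plus strand), the genes described above, with the match in capitals.
Cox6a1: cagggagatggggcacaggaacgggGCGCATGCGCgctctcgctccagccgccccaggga
Atp5k: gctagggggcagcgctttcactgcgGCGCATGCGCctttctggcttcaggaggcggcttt
Mrpl30: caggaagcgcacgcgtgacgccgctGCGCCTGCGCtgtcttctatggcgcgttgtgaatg
Cox6a1 and Atp5k carry the same 10 letters, which read alike on both strands. The core receptor sequence TCAAGGTCA of oestrogen-related receptors was in 2 of the 57 respiratory chain peaks and in 0.34% of all promoters searched.

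Gene length went with the contrast. In the decile of genes with the shortest exons the median contrast was 0.17, with 20.7% peaks and 7.18% troughs, and in the decile with the longest exons it was -0.01, with 7.32% and 12.2%. The counts of respiratory chain and mitochondrial ribosomal peaks with that trend removed are given above.

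**Figure D4:**
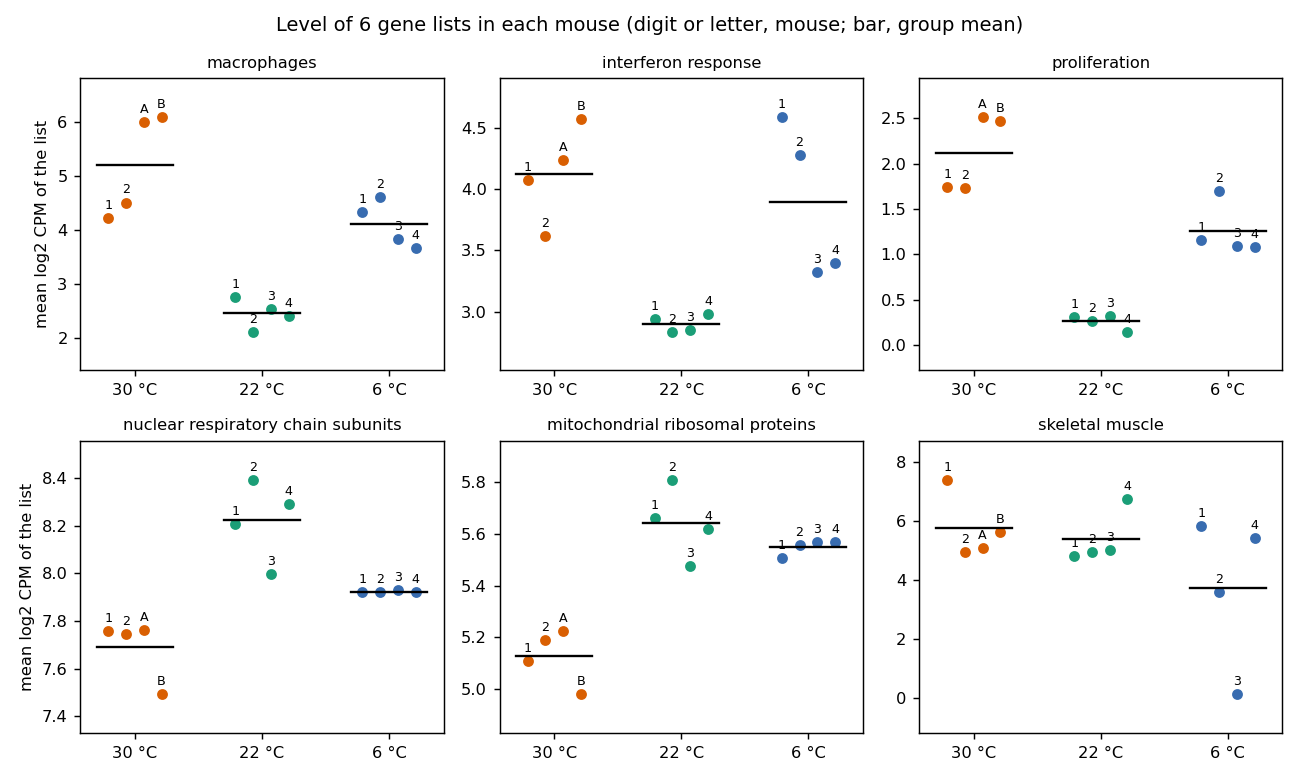
Mean log2 CPM over the members of 6 gene lists, 1 point per mouse at each temperature on the x axis. The macrophage, interferon and proliferation lists are lowest at 22 °C, the respiratory chain list is highest there, the mitochondrial ribosome overlaps 6 °C, and the skeletal muscle list varies between mice of 1 temperature.

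The smallest contrast p of all tested genes was that of Fcor, which encodes a small corepressor of the transcription factor FOXO1 in adipocytes (chr8:3671188-3672362, GRCm38). It was 10.2, 8.68, 9.08 and 9.61 CPM at 30 °C, 35.5, 36.9, 36.5 and 37.8 at 22 °C and 19.8, 23.8, 19.4 and 20.8 at 6 °C. The mice of each group lay close together and no groups overlapped. The contrast was 1.39 ± 0.07 (adjusted p = 3.3e-07, edgeR), and 22 °C was 3.90-fold above 30 °C and 1.75-fold above 6 °C.

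Gstz1, Acaa1a, Tst and Car14, all enzymes, were among the named peaks. Gstz1, maleylacetoacetate isomerase of tyrosine breakdown, was 228, 223, 193 and 172 CPM at 30 °C, 464, 389, 458 and 414 at 22 °C and 203, 204, 228 and 196 at 6 °C. Acaa1a, the thiolase of peroxisomal fatty acid oxidation, was 97.3, 92.0, 102 and 90.4 CPM at 30 °C, 154, 155, 152 and 151 at 22 °C and 89.6, 84.1, 85.2 and 90.3 at 6 °C. For both genes every mouse at 22 °C was above all others and the difference between 6 and 30 °C was not called (0.03 and -0.13 log2 units, adjusted p = 0.832 and 0.0794, edgeR), although the 6 °C mice lay below the 30 °C mice for Acaa1a. The contrasts were 1.07 ± 0.08 (adjusted p = 2.34e-05, edgeR) and 0.74 ± 0.05 (adjusted p = 6.68e-06). Tst, a mitochondrial sulfurtransferase, had 1.20 ± 0.12, and Car14, a membrane carbonic anhydrase, 1.16 ± 0.18. Part of the exon bases of Gstz1 (12.2%) and Car14 (17.5%) lies under genes of the opposite strand.

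Receptors and signalling proteins were also among the peaks. Ptger3, a prostaglandin E2 receptor that lowers cAMP, was 14.2, 22.5, 16.0 and 16.8 CPM at 30 °C, 101.3, 105, 49.99 and 52.4 at 22 °C and 35.3, 42.1, 33.3 and 47.3 at 6 °C. At 22 °C mice 1 and 2 were well above mice 3 and 4, which were still above all others, and the contrast was 1.56 ± 0.21 (adjusted p = 0.000782, edgeR). Itpka, a kinase of inositol trisphosphate, was lowest at 6 °C, with 15.2 CPM at 30 °C, 26.9 at 22 °C and 6.80 at 6 °C, and a contrast of 1.40 ± 0.12 (adjusted p = 5.08e-05, edgeR). Eif4ebp1, a brake on translation that mTOR releases, was 114, 100.5, 119 and 93.1 CPM at 30 °C, 191, 231, 211 and 209 at 22 °C and 130, 134, 124 and 121 at 6 °C, with no overlap of 22 °C and a contrast of 0.85 ± 0.07 (adjusted p = 3.96e-05, edgeR). Of 27 genes of insulin and mTOR signalling 6 were peaks (22.2%) and 2 troughs (7.41%), as against 12.1% and 12.5% of all tested genes.

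**Figure D5:**
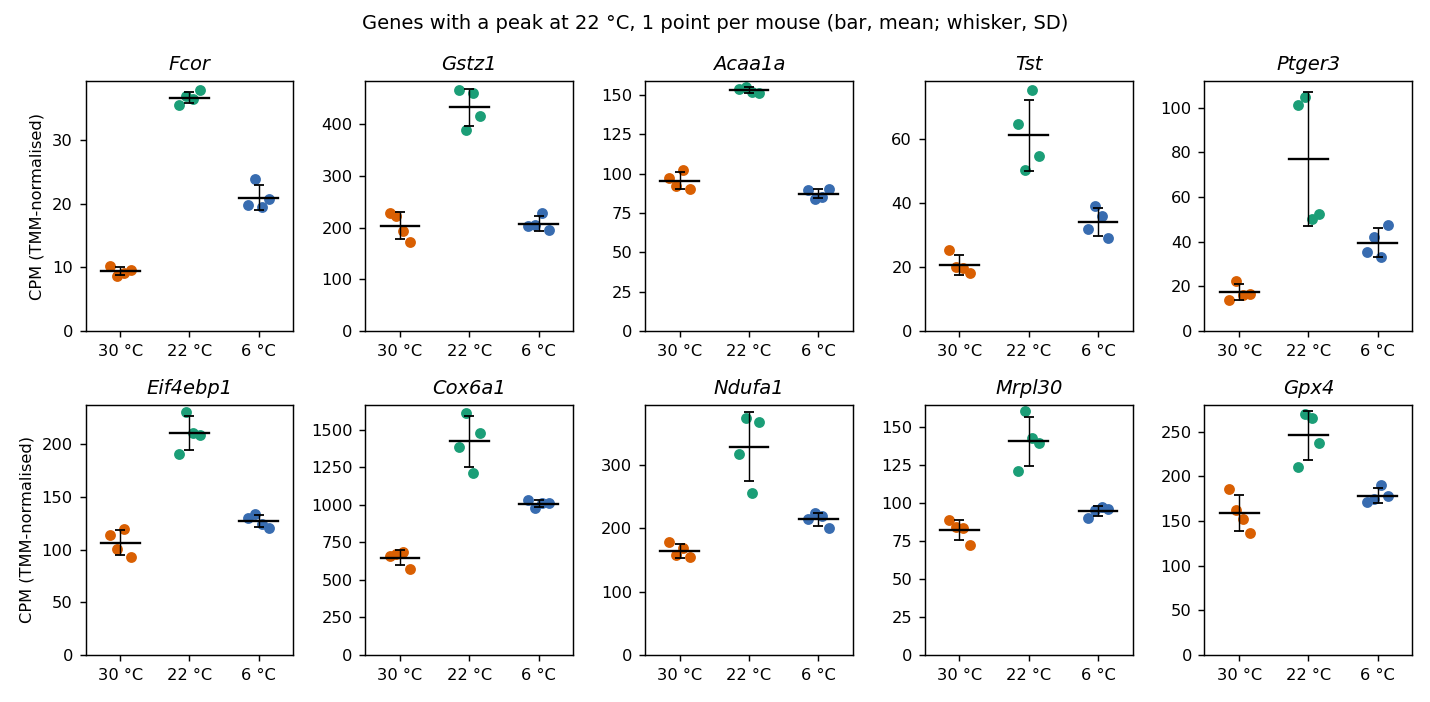
CPM of 10 genes with a peak at 22 °C, 1 point per mouse, with a bar for the mean and a whisker for the SD of 4 mice at each temperature on the x axis. All 22 °C points lie above those at 30 and 6 °C in each panel, closely grouped for Fcor and Acaa1a and spread for Ptger3.

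The antioxidant list held peaks (21.7%) and troughs (8.7%), as against 12.1% and 12.5% of all tested genes. Peaks were 5 of 23 genes of that list, among them the glutathione peroxidase Gpx4, which reduces lipid peroxides, with 186, 162, 152 and 137 CPM at 30 °C, 211, 270.4, 265 and 237 at 22 °C and 171, 174, 190.1 and 178 at 6 °C. Every mouse at 22 °C was above the other mice, and the contrast was 0.55 ± 0.09 (adjusted p = 0.00095, edgeR). The superoxide dismutase Sod1 had 0.49 ± 0.06 (adjusted p = 0.000288, edgeR). The 2 troughs of the list were Hmox1, above, and Nfe2l2, the gene of the factor NRF2.

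The lists of fatty acid synthesis, mitochondrial fatty acid oxidation and the pyruvate and citric acid cycle held 15%, 38.1% and 20% peaks. The share was 12.1% among all tested genes. It was 4.76% in the list of glucose uptake and glycolysis and 4.76% in that of glycogen metabolism. For fatty acid synthesis, oxidation and the cycle, both steps were called for 1, 1 and 2 peaks. Their median steps from 6 °C were -0.30, -0.26 and -0.20 log2 units. Of 20 genes of fatty acid synthesis 3 were peaks, Srebf1 with both steps called at 0.76 ± 0.15 (adjusted p = 0.00354, edgeR), and 8 were higher at 22 °C by the contrast but with a mean between the extremes, as Fasn, fatty acid synthase, was with 1.39 ± 0.38 (adjusted p = 0.0199, edgeR, and 0.063 without 22 °C mouse 1). Mitochondrial fatty acid oxidation held 8 peaks of 21 and 1 trough, Cpt1a, the entry enzyme of that pathway. Pyruvate and citric acid cycle genes held 6 peaks of 30, led by pyruvate carboxylase, Pcx, at 644, 549.9, 515 and 450.3 CPM at 30 °C, 1282, 1070, 1183 and 1097 at 22 °C and 889, 884, 941 and 1038 at 6 °C. Its 22 °C range lay just above that of 6 °C, and the contrast was 0.70 ± 0.09 (adjusted p = 0.000367, edgeR).

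Thermogenic genes as a class were not extreme at 22 °C. Of 25, the peaks were Cidea, Cox8b and Cox7a1 (12%, as against 12.1% of all tested genes). There was no trough, and the median contrast was 0.08. Ucp1 rose at each step, from 1469 CPM at 30 °C to 3373 at 22 °C and 10440 at 6 °C, for a contrast of -0.22 ± 0.26 (adjusted p = 0.575, edgeR). Dio2, which activates thyroid hormone, had 0.08 ± 0.42 (adjusted p = 0.908, edgeR), Ppargc1a, the coactivator of mitochondrial biogenesis, -0.32 ± 0.20 (adjusted p = 0.248), and Elovl3, a fatty acid elongase of cold-exposed brown fat, 0.66 ± 0.25 (adjusted p = 0.0712, and 0.0293 without 30 °C mouse 2). For Ucp1 and Dio2 a contrast near 0 means only that 22 °C was near the middle of the log2 range. Ppargc1a at 22 °C lay nearer to its 30 °C level. Its steps were 0.27 from 30 °C (adjusted p = 0.361, edgeR) and -0.92 from 6 °C (adjusted p = 0.00987).

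Of 22 circadian clock genes 2 were peaks (9.09%, below the 12.1% of all tested genes), and none was a trough. Per3, a repressor of the clock, was 34.6, 26.2, 23.6 and 27.4 CPM at 30 °C, 65.5, 42.8, 33.8 and 60.6 at 22 °C and 16.0, 23.8, 19.0 and 17.2 at 6 °C. At 22 °C mouse 3 fell within the range of 30 °C, and the contrast was 1.13 ± 0.17 (adjusted p = 0.00102, edgeR). The other was Cry2, at 0.43 ± 0.13 (adjusted p = 0.0237, edgeR), a call lost without mouse 1 (adjusted p = 0.0855) or mouse 4 (0.0831) of 22 °C. The contrasts of the other 20, Clock, Arntl, Per1 and Per2 among them, did not pass the test. The hour of tissue collection is not given in the sources used here.

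Secreted products of the tissue held 7 peaks (30.4%) and 5 troughs (21.7%) among 23, as against 12.1% and 12.5% of all tested genes. Adipoq, adiponectin, was a peak with 30 and 22 °C close together: its means were 1068 CPM at 30 °C, 1100 at 22 °C and 621 at 6 °C, and the step from 30 °C was 0.04 (adjusted p = 0.765, edgeR). No peak of this list had both steps called. Its troughs were Gdf15, above, with Lcn2, Fgf21, Metrnl and Igfbp3. Among vessel markers, 6 of 15 endothelial genes were troughs (40%, as against 12.5% of all tested genes), 2 of them with both steps called. The median step of the list was -0.55 log2 units from 30 °C and -0.05 from 6 °C. Pecam1, the adhesion protein CD31, had both steps called, at 180.4, 206, 192 and 231 CPM at 30 °C, 139.9, 137, 123.2 and 145 at 22 °C and 173, 178, 167 and 171 at 6 °C. Its 22 °C range lay below both others, with a contrast of -0.45 ± 0.07 (adjusted p = 0.00101, edgeR). Of 25 genes of extracellular matrix 6 were troughs (24%) and of 15 fibroblast markers 3 (20%), with both steps called for 1 in each list. The median steps of these lists were -0.83 and -0.67 log2 units from 30 °C, and 0.08 and 0.55 from 6 °C.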

How the data were processed

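Total RNA of interscapular brown fat was sequenced, 1 library per mouse, with libraries made by standard Illumina methods per the labels' protocols. The authors deposited raw counts of 38924 Ensembl genes in a single table, not normalised. Per the submitters' processing notes, which give no roles, the tools were edgeR 3.14.0, STAR 2.4.2a and FastQC 0.10.1, and the builds mm10 and GRCm38. Which counter and annotation release were used, the strandedness and the sex of the mice were not given in the sources used here. Sample titles tied 10 columns to their samples, and the remaining 2 were placed at 30 °C by letter only. Mice with a number are numbered here as in the sample descriptions, and for some of them the title and column name carry another number. Symbols and positions came from the GENCODE annotation of GRCm38 (96.62% of identifiers matched), which also restored 27 symbols that had become dates.

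Counts were filtered with filterByExpr, scaled by TMM and fitted with 1 mean per temperature in edgeR 4.0.16 (R 4.3.3, glmQLFit with robust estimation, glmQLFTest, two-sided). CPM values are TMM-normalised. At the smallest total 1 CPM is 18.3 counts before TMM scaling. Pairs of libraries within a group differed beyond counting noise. The code was tested on simulated data. Lists are described by counts and medians beside the same over all genes, with no test of their own.

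The genes, lists and tests were chosen with earlier results of these data known. Lists of respiratory complexes, mitochondrial import and assembly factors, chemokines, class II, Fc and lectin receptors, the helicase, kinesins, the proton pump, carriers and peroxisomal enzymes were added after values were seen. Named genes had a mean of at least 2 CPM, a called contrast and 22 °C ranges apart from both others: the 15 with the largest smaller step and the 5 with the smallest p in each direction. Up to 4 called peaks or troughs per list with the smallest p, the clock genes, and Ucp1, Fasn, Elovl3, Dio2 and Ppargc1a were added. Predicted and clone names were left out of that rule, and other genes are said to be chosen after their values were seen.

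In RefSeq promoters (GRCm38.p6, 300 bases) 11 strings known from factor binding sites, spelled out where their matches are given, were searched on both strands. Within a list only its called peaks or troughs were counted, so a share cannot be set apart from that of the whole list. Alternatives were other scalings, filters, thresholds and tools (DESeq2 1.42.0, limma 3.58.1), thinning the deepest library, a muscle covariate, the mouse number as a block, and leaving out libraries. Removal of a length and GC trend, and leaving out 22 °C mouse 3 with mice A and B, were chosen after seeing the data. Some results are not reported here.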

Additional observations from a re-analysis of the deposited data

Results flagged for a closer look

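In a group of 4 mice, a single mouse was singled out when its gap to the nearest other mouse exceeded 0.829 of the group's range (Dixon's 95% critical value). Of 225 groups of 4 checked, over the genes given with values and 7 lists, 15 held such a mouse, and chance alone flags about 1 in 20 groups.

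At 30 °C, mouse B was low for Mrps21 (35.89 CPM, others 41.89 to 42.25), for Cox6c (314.1 CPM, others 360.2 to 369.1) and for the mean log2 CPM of the respiratory chain (7.492, others 7.745 to 7.762). Mouse 2 was high for Map1lc3a (164.5 CPM, others 146.9 to 149.2).

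At 22 °C, mouse 1 was high for Cd5l (0.2474 CPM, others 0.03537 to 0.05963) and for Elovl3 (105.5 CPM, others 47.88 to 54.32). Mouse 2 was high for Ndufa4l2 (9.302 CPM, others 7.416 to 7.62), mouse 3 for Hspe1 (89.37 CPM, others 67.12 to 70.0) and mouse 4 for the mean log2 CPM of the skeletal muscle markers (6.742, others 4.812 to 4.994).

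At 6 °C, mouse 2 was high for Top2a (9.594 CPM, others 4.459 to 4.669) and for the mean log2 CPM of the proliferation list (1.696, others 1.083 to 1.157), and low for Cox4i2 (3.343 CPM, others 3.574 to 3.62). Mouse 1 was low for Sod1 (253.7 CPM, others 274.3 to 277.8). Mouse 3 was high for Ppargc1a (114.2 CPM, others 75.76 to 80.51) and for the respiratory chain mean (7.932, others 7.92 to 7.921).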

How the results depend on the processing

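Over 217 named genes and the settings tried, 5645 values were counted as unchanged, 189 kept their direction but no longer passed and 20 newly passed in the same direction. For genes called in the main fit, unchanged means the same direction and side of the threshold, and none of them reversed. For genes not called there, a change of direction was also counted as unchanged. Leaving out 1 mouse at a time gave 1652 to 2419 genes higher and 1665 to 2292 lower at 22 °C, 1368 to 1944 peaks, 1513 to 1999 troughs, and with both steps called 458 to 629 peaks and 530 to 838 troughs.

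With total counts and no scaling factors there were 1275 higher genes, 965 peaks and 315 peaks with both steps called, and the cause was not tested. Without 30 °C mice A and B, which leaves 2 mice at 30 °C, 378 peaks had both steps called. Stricter rules call fewer genes by construction. An adjusted p under 0.01 gave 1102 higher and 1134 lower genes, 959 peaks, 1063 troughs, and 233 peaks and 315 troughs with both steps called. A change of at least 2-fold as well as an adjusted p under 0.05 gave 190, 781, 162, 762, 33 and 380 in that order.

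The 8 correlations of same-numbered mice between temperatures, by the number in the sample descriptions, ran from -0.15 to 0.23. Differently numbered mice were not compared, so these values cannot tell whether samples were paired. With the mouse number as a block, on the 10 columns with a matched number, there were 1190 higher and 1278 lower genes, 1025 peaks, 1155 troughs, and 286 peaks and 494 troughs with both steps called. The same 10 columns without the block gave 1616, 1760, 1334, 1563, 378 and 701 in that order, and the cause of the difference was not tested. The calls of Isg15 (adjusted p = 0.0868, edgeR), Mcm7 (0.0605), Cox4i2 (0.131), Ndufa4l2 (0.0957) and Sdf2l1 (0.0592) did not pass under it, and the interferon list held 8 troughs.

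Depth limits the folds of the lowest genes, since Mmp12, F7, F10, Gdf15 and Cd5l had few reads at 22 °C.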

Other observations

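Further lists held single members with a sharp departure at 22 °C. Of 21 genes of lipolysis and lipid uptake 5 were peaks (23.8%) and 1 was a trough. Apoc1, an apolipoprotein of triglyceride-rich particles, was 193, 187, 178 and 150.0 CPM at 30 °C, 526, 538, 348.5 and 649 at 22 °C and 335, 330.4, 321 and 312 at 6 °C. All 12 mice fell into separate ranges by temperature, and the contrast was 1.10 ± 0.12 (adjusted p = 0.000158, edgeR). The trough was Fabp3, a fatty acid binding protein of muscle and brown fat, with -0.79 ± 0.16 (adjusted p = 0.00407, edgeR). Among 23 heat shock and chaperone genes there were 2 peaks and 2 troughs (8.7% each, below the 12.1% and 12.5% of all tested genes). Hspe1, the small chaperonin of the mitochondrial matrix, was a peak at 38.0, 34.0, 35.0 and 34.7 CPM at 30 °C, 68.8, 70.0, 89.4 and 67.1 at 22 °C and 59.7, 56.8, 63.6 and 63.1 at 6 °C, with a contrast of 0.67 ± 0.08 (adjusted p = 0.000158, edgeR). Its 22 °C mice lay above all others. Bag3, a partner of HSP70 in clearing damaged proteins, was a trough at -0.65 ± 0.16 (adjusted p = 0.0106, edgeR, and 0.0633 without 22 °C mouse 3 and mice A and B together).

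Of 22 genes of the unfolded protein response 5 were troughs (22.7%), 3 with both steps called, and none was a peak. Sdf2l1, a resident protein of the endoplasmic reticulum, was 5.52, 4.86, 12.2 and 9.01 CPM at 30 °C, 4.35, 3.04, 3.35 and 3.25 at 22 °C and 6.54, 10.3, 4.67 and 7.92 at 6 °C, with no overlap of 22 °C and a contrast of -1.13 ± 0.27 (adjusted p = 0.00923, edgeR). Autophagy and lysosome genes held 2 peaks (7.69%) and 6 troughs (23.1%) of 26. Map1lc3a, an LC3 protein of the autophagosome, was a peak at 0.50 ± 0.08 (adjusted p = 0.00106, edgeR), and Gla, a lysosomal galactosidase, a trough at -1.25 ± 0.25 (adjusted p = 0.0031). The proton pump of lysosomes held 3 troughs of 20 (15%), mitochondrial carriers 5 peaks (11.9%) and 4 troughs (9.52%) of 42, and peroxisomal acyl-CoA enzymes 4 peaks of 17, beside 12.1% peaks and 12.5% troughs among all genes. Proteasome subunits held 6 peaks of 37 (16.2%), and white adipocyte markers 3 of 10, none with both steps called.

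The remaining strings searched in the promoters are given as shares. GAGGAAGT, known from sites of the macrophage factor PU.1, was in 4 of 14 macrophage troughs (28.6%), 7.69% of all troughs and 3.81% of all tested genes. TGANTCA of AP-1 was in 5 of those 14 (35.7%), with 9.01% and 6.48% in the same backgrounds. CCGGAAGT of ETS factors was in 8 of 42 mitochondrial ribosomal peaks (19%), 5 of 57 respiratory chain peaks (8.77%) and 8.6% of all genes. For TTTCCCGC and TTTGGCGC, forms of the E2F site, 1 and 3 of 18 proliferation troughs had a match, as against 2.22% and 1.08% of all genes. TGACGTCA, the cAMP response element, was in 3.67% of all peaks and 2.22% of all troughs, and the NF-kappaB site (GGGA, any base, TTTCC) in 0.367% and 0.693%. Matches of different strings can overlap.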
